A study of Mus musculus with 18 samples.

Results

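Colon tissue of mice with chronic colitis was compared between 3 libraries labelled RNF138-/- and 3 labelled wild type. These 6 libraries, chosen by their labels for model and genotype, are 6 of the 18 of the study, whose other libraries are from colons of the colitis-associated cancer (CAC) model and from organoids of its tumors. The mice were C57BL/6, aged 6 to 8 weeks at the start. They drank 2% dextran sulfate sodium (DSS), a polysaccharide that injures the colon epithelium, for 7 days, then plain water for 14 days, in repeated cycles, and the colon was taken 4 weeks after the last DSS cycle. The wild-type animals carried the conditional allele and are written RNF138 fl/fl in the study, and both genotypes received the same DSS course. The Cre line, its promoter and the cells it recombines in are not given in the sources used here. Neither is it stated that each library is 1 mouse, so p-values measure only the spread between these libraries.

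The epithelium of the colon is a single sheet of absorptive colonocytes, mucus-secreting goblet cells, hormone-secreting enteroendocrine cells and sensory tuft cells, all renewed from stem cells in the crypts. Under it lie immune cells, lymphoid follicles, fibroblasts, enteric nerves and smooth muscle. Repeated DSS exposure injures the sheet and brings it into contact with bacteria, and NF-κB, a family of transcription factors held in the cytoplasm by IκB proteins, is among the main pathways that answer such contact. RNF138 is a RING finger ubiquitin ligase known for its part in the repair of DNA double-strand breaks. Because whole tissue was sequenced, fewer cells of a type and less RNA per cell cannot be told apart.

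Total counts were between 15943521 and 18061442 per library. The 10 genes with the most counts held 6.98% to 8.60% of a library, immunoglobulin genes 1.28% to 1.55% and mitochondrial genes 3.20% to 6.23%, the highest of these in RNF138-/- replicate 3. Levels are given as CPM, the counts of a gene scaled to the library size after TMM normalization, and genes passing the low-count filter numbered 16623. Correlations of log2 CPM between libraries, across genes, were 0.966 to 0.983 among wild-type libraries, 0.923 to 0.963 among RNF138-/- libraries and 0.924 to 0.965 between genotypes. The RNF138-/- libraries thus differed from each other about as much as from the wild type, and the median over genes of the SD of log2 CPM was 0.36 in them against 0.24 in the wild type. Xist had 2 to 5 counts in every library and the Y-linked genes Ddx3y, Uty, Kdm5d and Eif2s3y were present in all 6, so that these markers did not differ in kind between the groups, although the methods speak of male and female mice.

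The targeted gene did not follow the labels. Rnf138 (ENSMUSG00000024317.14, chromosome 18, 21001341 to 21028224 of mm10) stood at 15.8, 18.1 and 25.2 CPM in wild-type libraries 1 to 3 and at 19.4, 18.1 and 19.4 CPM in the libraries labelled RNF138-/-. The groups overlapped. On the log2 scale the difference was -0.06 (SE 0.22, adjusted p = 0.963 in edgeR), and it turned to 0.16 without wild-type replicate 3. An exact two-sided permutation test of the CPM gave p = 0.9, and a design of 3 against 3 cannot go below 0.1. The counts do not say which exons were deleted, so every direction below is that of the libraries labelled RNF138-/-. The tissue markers did follow their label. Epcam, the adhesion molecule of epithelial cells, had between 1194 and 1633 CPM in the 6 libraries, and the mucin Muc2 between 4691 and 11304 CPM.

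Few genes passed the test. With edgeR's quasi-likelihood test, 3 genes were called higher (0.018% of those tested) and 12 lower (0.0722%) in RNF138-/- colon, 15 in all (0.0902%), a call being an adjusted p below 0.05 together with at least a 2-fold difference. Dropping the requirement on the fold left the number at 15 (0.0902%). At an unadjusted p under 0.05, 6.08% of genes were higher and 4.33% lower, and with a 2-fold difference as well these shares were 3.06% and 1.41%. The groups did not overlap in 8.92% (higher) and 8.15% (lower) of genes. The log2 fold change was above 0 in 52.4% of all genes, with a median of 0.02. The counts of list members given below are to be read against these shares. The number of calls depended strongly on the test and on single libraries. DESeq2 called 191 genes higher and 135 lower, and these held all 15 genes of the edgeR call. Without RNF138-/- replicate 3, edgeR called 78 higher and 69 lower, and without RNF138-/- replicate 1, 28 and 34. Without wild-type replicate 1 it called 0 higher and 1 lower, without wild-type replicate 3 it called 0 and 0, at 789 and 526 genes with an unadjusted p under 0.05, and without RNF138-/- replicate 2 it called 2 and 0.

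Gsdmc3 rose. It encodes a member of the gasdermin C family, pore-forming proteins of the gut epithelium that type 2 cytokines induce. The gene (ENSMUSG00000055827.13) lies on chromosome 15, from 63857724 to 63878558. It had 22.1, 35.0 and 27.9 CPM in wild type and 292, 181 and 119.6 CPM in RNF138-/- libraries, so that every RNF138-/- library lay above every wild-type one (28.3 ± 6.46 against 197 ± 87.2, SD, n = 3). The log2 fold change was 2.80 (SE 0.35, adjusted p = 0.0489), and the adjusted p was past 0.05 in 7 of 15 alternative fits, among them those without wild-type replicate 1, 2 or 3 and without RNF138-/- replicate 2. Of the transcript windows of 50 bases of Gsdmc3, 46.0% also occur in another gene, mostly Gsdmc2, so that its reads may be divided among the family. The other members measured had higher values too, without passing the test. Gsdmc2 had 62.8, 84.5 and 77.8 CPM against 1360.2, 641 and 333 CPM (adjusted p = 0.0622), and Gsdmc4 had 176, 242 and 242 CPM against 1366, 1013 and 371 CPM (adjusted p = 0.179), with no overlap in either gene.

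The other called genes that were higher were pseudogenes. Gm14165, a processed pseudogene on chromosome 2, had 0.282, 0.283 and 0.372 CPM in wild type and 37.6, 16.2 and 22.5 CPM in RNF138-/- libraries, and differed by 6.32 on the log2 scale (SE 0.44, adjusted p = 0.00431). Gm8730, on chromosome 8, had 8.02, 8.19 and 6.26 CPM against 125, 64.6 and 97.0 CPM (log2 fold change 3.67, SE 0.29, adjusted p = 0.00693). Both are uncertain, since 39.1% of the windows of Gm14165 occur in another gene, mostly Gm8730, and 73.7% of those of Gm8730 in another gene, mostly Rplp0, which encodes a ribosomal protein. Their calls were lost without wild-type replicate 1 or 3.

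Among the lower genes, B3gnt7 and Col8a1 had the highest levels. B3gnt7 (ENSMUSG00000079445.3, chromosome 1, 86302832 to 86307305) is a glycosyltransferase that extends the sugar chains of glycoproteins. It had 424, 384 and 338 CPM in wild type and 37.3, 29.5 and 13.1 CPM in RNF138-/- libraries, and fell by 3.84 on the log2 scale (SE 0.39, adjusted p = 0.0176). Col8a1 (ENSMUSG00000068196.4, chromosome 16, 57624258 to 57754737), a chain of the short-chain collagen VIII, had 75.9, 69.8 and 90.9 CPM against 11.8, 15 and 16.7 CPM (log2 fold change -2.44, SE 0.21, adjusted p = 0.0103). In both genes the 3 RNF138-/- libraries lay well under the wild type. They were close together for Col8a1 but ran from 13.1 to 37.3 CPM for B3gnt7. Ctse, the endosomal protease cathepsin E, had 64.2, 81.6 and 58.1 CPM against 17.8, 10.8 and 9.33 CPM (log2 fold change -2.42, SE 0.29, adjusted p = 0.0412). Slc37a2, a sugar phosphate transporter of the endoplasmic reticulum, had 22.9, 32.3 and 22.8 CPM against 6.97, 7.16 and 6.87 CPM (log2 fold change -1.89, SE 0.22, adjusted p = 0.0408). These 4 calls were each lost without wild-type replicate 1, without wild-type replicate 3 and without RNF138-/- replicate 2, and those of Ctse and Slc37a2 also without wild-type replicate 2.

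Cytochrome P450 genes made up a further 3 of the lower calls. Cyp2c68 had 65.2, 50.5 and 93.3 CPM against 7.39, 4.57 and 11.3 CPM (log2 fold change -3.16, SE 0.38, adjusted p = 0.0412), and its neighbor Cyp2c69 had 19.8, 15.4 and 23.9 CPM against 2.56, 2.05 and 1.36 CPM (log2 fold change -3.31, SE 0.32, adjusted p = 0.0157). The pair share sequence with other genes, mostly Cyp2c40, in 43.3% and 54.3% of their windows. Cyp2f2, on chromosome 7, had 2.82, 3.62 and 3.04 CPM against 0.358, 0.181 and 0.420 CPM (log2 fold change -3.27, SE 0.41, adjusted p = 0.0475). Not every gene of the family went down, since Cyp2c65 had 28.5, 15.8 and 40.2 CPM against 56.4, 209.8 and 375 CPM (adjusted p = 0.185). Over the list of Cyp2c and other drug metabolism genes, 8 of 27 tested members had an unadjusted p under 0.05 and a higher level, 5 a lower one, and the median log2 fold change was 0.21. The count of higher members was 13 without RNF138-/- replicate 1 and 5 without wild-type replicate 2 or RNF138-/- replicate 2 or 3, and the median ran from 0.09 without RNF138-/- replicate 3 to 0.40 without wild-type replicate 1. The Cyp2c68, Cyp2c69 and Cyp2f2 calls were lost without wild-type replicate 1 or 3 or RNF138-/- replicate 2, that of Cyp2c68 also without RNF138-/- replicate 1 and that of Cyp2f2 without wild-type replicate 2.

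The remaining lower calls were 4 immunoglobulin segments and the pseudogene Gm11702. Gm20730, annotated as an immunoglobulin light chain variable gene, had 39.5, 15.8 and 34.4 CPM in wild type and 0 counts in every RNF138-/- library, which is at least 520.2-fold lower against a floor of 3 counts over the group. Igkv5-37 had 572 counts in wild type and 1 in RNF138-/- libraries, a ratio of 582 (95% exact interval 104 to 23041, counting error only). Igkv9-123 had 296 against 3 counts, a ratio of 100.4 (34.0 to 489.9), and Ighv1-34 had 5.02, 6.78 and 9.92 CPM against 0.358, 0.0602 and 0.420 CPM, with 45.7% of its windows also in another gene, mostly Ighv1-26. Gm11702 had 123 against 4 counts, a ratio of 31.3 (11.9 to 117), and all of its windows occur in another gene, Dctn1. All 5 calls were lost without wild-type replicate 3 or RNF138-/- replicate 2, those other than Igkv9-123 without wild-type replicate 1, and that of Ighv1-34 without wild-type replicate 2. Each plasma cell clone uses 1 heavy and 1 light chain segment. In the main annotation class of variable segments, which does not hold Gm20730, 155 were tested. Of these 10 had an unadjusted p under 0.05 and a higher level and 43 a lower one, with a median log2 fold change of -0.61. The summed level of these segments did not separate the groups, with 2344 to 3400 CPM in wild type and 2033 to 2975 CPM in RNF138-/- libraries.

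The 250 bases before the start of 5 genes are given in lower case, 5′ to 3′ on the strand of the gene, from RefSeq (GRCm38.p6). Of these genes 4 were called. Reg3g, an antimicrobial gene described after them, was not called and does not stand for the other antimicrobial genes. Capitals mark a match to the NF-κB consensus on either strand or to TATAAA on the strand of the gene. The windows lie at chr15:63878559-63878808 on the minus strand (Gsdmc3), chr1:86302971-86303220 on the plus strand (B3gnt7), and on the minus strand at chr19:39741102-39741351 (Cyp2c68), chr19:39886770-39887019 (Cyp2c69) and chr6:78468875-78469124 (Reg3g). The starts are those of RefSeq, and that of B3gnt7 lies inside the gene as given above from GENCODE, so that its whole window does too.
Gsdmc3: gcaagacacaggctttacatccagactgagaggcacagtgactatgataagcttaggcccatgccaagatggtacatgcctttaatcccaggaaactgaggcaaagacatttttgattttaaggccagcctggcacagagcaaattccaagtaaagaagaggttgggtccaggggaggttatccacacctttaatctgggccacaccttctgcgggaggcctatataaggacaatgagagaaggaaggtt
B3gnt7: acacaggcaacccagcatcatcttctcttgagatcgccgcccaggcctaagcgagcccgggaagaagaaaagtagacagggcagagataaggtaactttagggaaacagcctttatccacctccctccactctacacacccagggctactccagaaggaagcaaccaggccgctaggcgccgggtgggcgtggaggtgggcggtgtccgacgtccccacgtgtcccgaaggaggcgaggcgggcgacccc
Cyp2c68: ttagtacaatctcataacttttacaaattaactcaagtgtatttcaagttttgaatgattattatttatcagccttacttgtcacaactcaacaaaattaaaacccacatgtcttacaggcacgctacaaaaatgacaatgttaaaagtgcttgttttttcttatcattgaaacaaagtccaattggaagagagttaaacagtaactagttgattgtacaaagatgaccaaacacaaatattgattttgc
Cyp2c69: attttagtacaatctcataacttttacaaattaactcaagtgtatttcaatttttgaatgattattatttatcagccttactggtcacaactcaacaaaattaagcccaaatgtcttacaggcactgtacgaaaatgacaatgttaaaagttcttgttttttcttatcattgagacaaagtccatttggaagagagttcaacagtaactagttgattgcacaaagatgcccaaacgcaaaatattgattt
Reg3g: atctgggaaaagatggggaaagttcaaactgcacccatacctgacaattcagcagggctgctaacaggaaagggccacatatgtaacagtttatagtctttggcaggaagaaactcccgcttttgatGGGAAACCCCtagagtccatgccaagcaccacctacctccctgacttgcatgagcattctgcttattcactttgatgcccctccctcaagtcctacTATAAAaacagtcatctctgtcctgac
Only Reg3g among these 5 held a match to either motif, to NF-κB 123 bases and to TATAAA 27 bases before the start. In all 32851 windows of this length, 3.9% held the NF-κB consensus and 7.59% TATAAA. Of the 15 called genes, 7 had a window, and 0 of these held the NF-κB consensus. The windows of Cyp2c68 and Cyp2c69, which fell together, differ by 22 single-base changes, insertions and deletions, against 138 between Cyp2c68 and Gsdmc3. The window of B3gnt7 is 61.6% G or C and that of Cyp2c68 29.6%. These matches are descriptions of letters, and no binding was measured.

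Antimicrobial products of the epithelium had higher values in RNF138-/- libraries without passing the test. In the list of epithelial defence and acute phase genes, 10 of 19 tested members had an unadjusted p under 0.05 and a higher level and 0 a lower one, 0 were called, and the median log2 fold change was 1.06. Retnlb, the goblet cell protein RELMβ that acts on bacteria and helminths, had 3.67, 4.12 and 5.09 CPM in wild type and 1800.2, 1746 and 98.1 CPM in RNF138-/- libraries (log2 fold change 8.14, SE 1.11, adjusted p = 0.0525). Ang4, an antimicrobial ribonuclease, had 15.6, 25.1 and 17.6 CPM against 2595, 2690.4 and 26.5 CPM (log2 fold change 6.51, SE 1.41, adjusted p = 0.184). Both were far higher in RNF138-/- replicates 1 and 2 than in replicate 3, which lay just above the wild type for Ang4. Itln1, a lectin that binds microbial sugars, showed the same order, with 0.677, 1.02 and 0.558 CPM against 71.8, 150.5 and 1.99 CPM, as did the phospholipase Pla2g4c, with 1.64, 1.19 and 2.36 CPM against 236, 52.8 and 2.83 CPM.

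The lectins Reg3b and Reg3g, which act on bacteria at the epithelium, had the opposite order among the RNF138-/- libraries. Reg3b had 0.339, 0 and 0.186 CPM in wild type and 5.19, 5.72 and 478 CPM in RNF138-/- libraries (adjusted p = 0.202), and Reg3g had 0.847, 0.226 and 1.18 CPM against 2.98, 3.85 and 114 CPM (adjusted p = 0.242). Replicate 3 stood far above the other RNF138-/- libraries in both genes. Oxidant-producing enzymes were more even. Nos2, inducible nitric oxide synthase, had 0.847, 2.15 and 1.18 CPM against 19.3, 7.10 and 14.2 CPM (log2 fold change 3.28, SE 0.49, adjusted p = 0.0652), and Duox2, the epithelial hydrogen peroxide-producing oxidase, had 72.3, 137 and 60.7 CPM against 674, 379 and 189 CPM (adjusted p = 0.185). Both groups were apart in these genes. Lactoperoxidase, Lpo, which uses hydrogen peroxide, had 773, 349.6 and 569 CPM against 39.9, 47.0 and 143 CPM (adjusted p = 0.156).

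**Figure D1:**
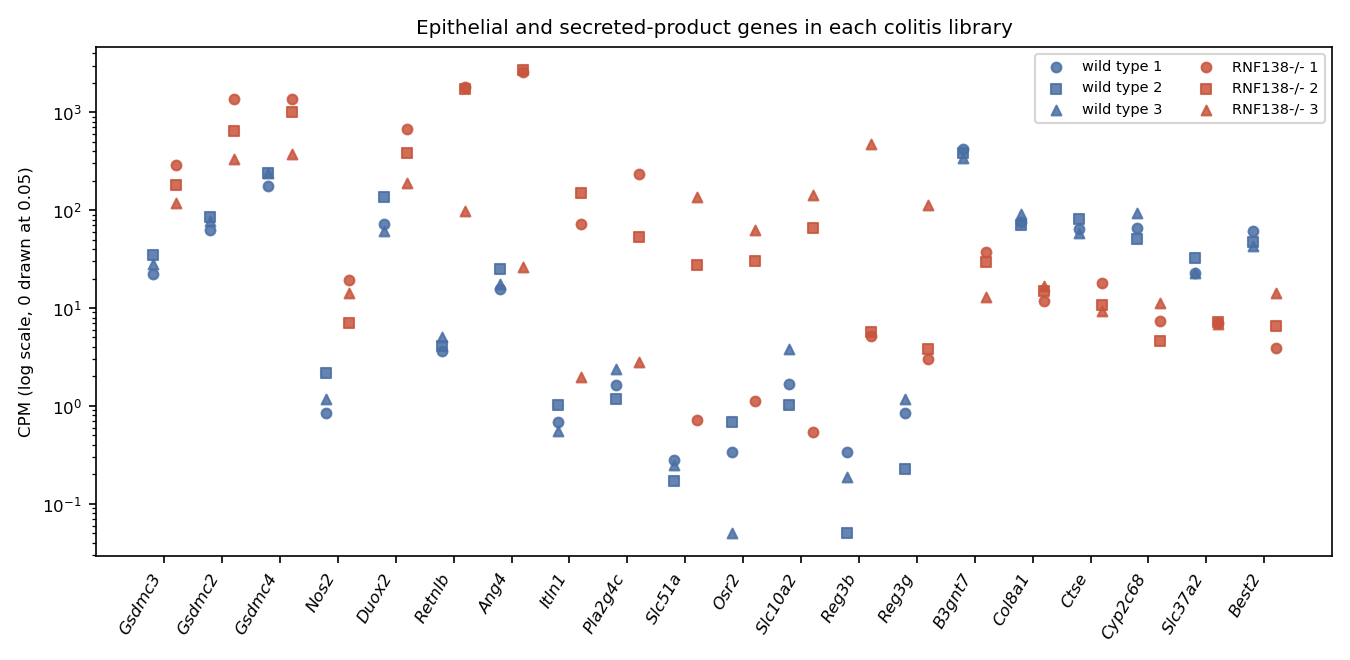
CPM on a log scale of 20 genes in each of the 6 colitis libraries, wild type in blue and RNF138-/- in red, with the marker shape giving the replicate number. The RNF138-/- libraries all lie below the wild type for B3gnt7, Col8a1, Ctse, Cyp2c68 and Slc37a2, while replicates 1 and 2 stand far above replicate 3 for Retnlb, Ang4 and Itln1 and replicate 3 stands highest for Reg3b, Reg3g and Slc51a.

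Genes that answer type 2 cytokines were described with the gasdermin C family. In that list 8 of 14 tested members had an unadjusted p under 0.05 and a higher level and 1 a lower one, 1 (Gsdmc3) was called, and the median log2 fold change was 1.03. The count of higher members was 5 without wild-type replicate 1 or 2, and the median was 0.64 without RNF138-/- replicate 1. The cytokine Il13 itself was below the filter, with 0, 1 and 0 counts in wild type and 36, 9 and 1 counts in RNF138-/- libraries, and Il5 had 1, 0 and 0 counts against 9, 1 and 1 counts. These 2 genes were looked at after the values of the list were seen. Il17rb, the receptor chain for IL-25 on tuft and lymphoid cells, had 2.71, 2.66 and 1.43 CPM against 11.4, 9.03 and 5.24 CPM (adjusted p = 0.169), so that the groups were apart. Over the tuft cell list the median log2 fold change was 0.17, with 2 of 14 tested members at an unadjusted p under 0.05 and a higher level and 1 with a lower one. The median was -0.09 without RNF138-/- replicate 1, 0.08 without RNF138-/- replicate 2 and 0.33 without wild-type replicate 1, and the higher members numbered 1 without any single library other than RNF138-/- replicate 1.

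Lists of mucus and ion transport genes had negative medians. In the goblet cell list 2 of 17 tested members had an unadjusted p under 0.05 and a higher level and 3 a lower one, with a median log2 fold change of -0.39. Single libraries moved these values both ways, with 2 higher and 9 lower members and a median of -0.75 without RNF138-/- replicate 2, and 5 higher and 2 lower members and a median of -0.18 without RNF138-/- replicate 3. In the list of colonocyte ion and water transport 1 of 22 had a higher and 3 a lower level at that p (median -0.37). The count of lower members was 7 without RNF138-/- replicate 1 and 5 without wild-type replicate 2 or RNF138-/- replicate 3. Zg16, a lectin of the inner mucus layer, had 3304, 3287 and 4394 CPM in wild type and 1580.3, 1669.8 and 2069 CPM in RNF138-/- libraries (log2 fold change -1.05, SE 0.23, adjusted p = 0.185). Muc4 had 275, 230.4 and 298 CPM against 131, 185 and 68.3 CPM, whereas Muc13 had 1112, 1192 and 1068 CPM against 1660.4, 1486 and 1559.9 CPM. Muc2, the main secreted mucin, overlapped, with 9654 ± 644 CPM (SD, n = 3) against 8185 ± 3322 CPM. Best2, an anion channel of goblet cells, had 61.5, 47.3 and 43.1 CPM against 3.93, 6.56 and 14.4 CPM (adjusted p = 0.115).

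The water channel Aqp4 had 545, 579.5 and 741 CPM in wild type and 272, 233 and 82.0 CPM in RNF138-/- libraries (adjusted p = 0.213). Slc26a3, the chloride and bicarbonate exchanger of colonocytes, had 991, 760.0 and 1272 CPM against 600.2, 481 and 269 CPM (adjusted p = 0.262). Both were lower in all 3 RNF138-/- libraries, as was Hsd11b2, which protects the mineralocorticoid receptor from glucocorticoids, with 373, 275 and 327 CPM against 79.6, 158 and 223 CPM. Lower values that did not pass the test were also found for Tgm3, a transglutaminase, with 348, 482 and 323 CPM against 70.0, 7.82 and 46.7 CPM, and for Sval1, with 386, 434 and 597 CPM against 134, 29.1 and 31.6 CPM. Pla2g2f, a secreted phospholipase, had 88.2, 98.7 and 61.8 CPM against 24.3, 10.3 and 3.72 CPM. Itih2, a heavy chain of the inter-alpha-trypsin inhibitors, lay just outside the threshold, with 7.62, 5.03 and 9.06 CPM against 0.596, 0.662 and 1.21 CPM (adjusted p = 0.0504). Pi16, known as a marker of adventitial fibroblasts, had 17.8, 23.7 and 13.3 CPM against 7.09, 2.29 and 2.20 CPM.

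Genes of the absorptive small intestine had higher values in some or all RNF138-/- libraries, and none was called. In the list of small-intestinal absorptive genes, 7 of 14 tested members had an unadjusted p under 0.05 and a higher level and 0 a lower one, 0 were called, and the median log2 fold change was 0.82 (0.41 without RNF138-/- replicate 3). Alpi, intestinal alkaline phosphatase, had 18, 9.15 and 11.8 CPM in wild type and 39.3, 45.7 and 46.1 CPM in RNF138-/- libraries (log2 fold change 1.75, SE 0.27, adjusted p = 0.0693), and Mep1b, a brush border protease, had 95.1, 94.1 and 110.3 CPM against 169.8, 209 and 257 CPM (adjusted p = 0.154). Every RNF138-/- library lay above every wild-type one in both genes. Genes of bile acid handling were less even among the RNF138-/- libraries. Slc10a2, the ileal bile acid importer, had 1.69, 1.02 and 3.85 CPM against 0.536, 65.1 and 142 CPM, and Slc51a, a subunit of the bile acid exporter, had 0.282, 0.170 and 0.248 CPM against 0.715, 27.3 and 136 CPM. Replicates 2 and 3 held the high values, and replicate 1 lay below the wild type for Slc10a2 and just above it for Slc51a.

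The same replicates were high for further genes. The transcription factor Osr2 had 0.339, 0.678 and 0 CPM in wild type and 1.13, 30.4 and 62.3 CPM in RNF138-/- libraries, and Nts, the gut hormone neurotensin, had 0.508, 0.509 and 0.496 CPM against 4.65, 26.8 and 26.9 CPM (adjusted p = 0.0525). Slc7a9, an amino acid transporter, had 0.621, 0.509 and 0.124 CPM against 1.19, 4.09 and 12.6 CPM, and Clca4b had 0.847, 0.735 and 0.806 CPM against 2.86, 6.74 and 31.8 CPM. Vnn1, a pantetheinase, had 1.30, 1.41 and 1.61 CPM against 2.21, 6.5 and 50.7 CPM. In these 5 genes RNF138-/- replicate 3 was the highest library. Car1, a carbonic anhydrase of colonocytes, had 816, 407 and 1038 CPM against 657, 3739 and 4074 CPM, so that replicate 1 fell within the wild type.

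Hox genes, which specify position along the body axis, were examined after their values were seen. Of all 26 coding Hox genes tested 11 had an unadjusted p under 0.05 and a higher level and 1 a lower one, and of the 10 Hoxa genes among them 1 and 0 (median log2 fold change 0.0067). All 7 tested genes from Hoxb2 to Hoxb8 had an unadjusted p under 0.05 and a higher level in RNF138-/- colon, with 0 called, and their summed level was 21, 22.9 and 14.7 CPM in wild type and 54.1, 203 and 210.3 CPM in RNF138-/- libraries. Hoxb6 had 7.57, 7.91 and 4.03 CPM against 19.2, 102 and 88.1 CPM (adjusted p = 0.128), and Hoxb8 had 2.03, 1.30 and 1.24 CPM against 2.03, 27.3 and 32.1 CPM (adjusted p = 0.197). Replicate 1 lay between the wild type and the other RNF138-/- libraries for Hoxb6 and within the wild type for Hoxb8. Hoxb13, the most posterior gene of the cluster, had 168, 183 and 115 CPM against 73.7, 4.87 and 7.97 CPM (adjusted p = 0.409), and Hoxb9 had 65.6 ± 5.71 against 66.6 ± 10.2 CPM (SD, n = 3). Hoxd13 had 5.42, 13.4 and 5.95 CPM against 6.26, 0.0602 and 0.0524 CPM. Pdx1, a transcription factor of the pancreas and duodenum, had 4.01, 4.29 and 2.92 CPM against 0.775, 0.963 and 0.787 CPM (adjusted p = 0.0675). The stretch of colon taken for each library is not given in the sources used here, and its part in these differences was not tested.

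**Figure D2:**
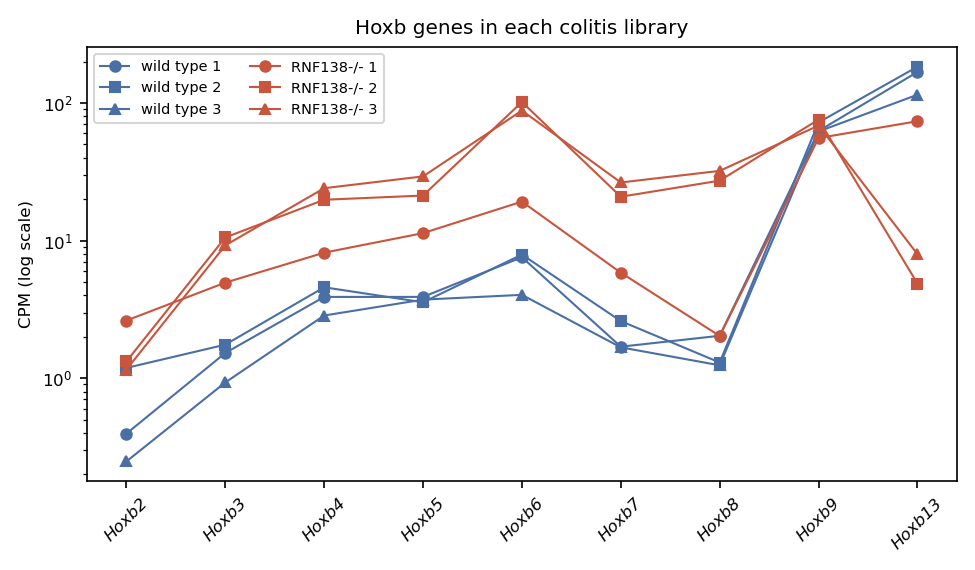
CPM on a log scale of the tested Hoxb genes in cluster order in each colitis library, with wild type in blue and RNF138-/- in red. RNF138-/- replicates 2 and 3 lie above the other libraries from Hoxb3 to Hoxb8 and below them at Hoxb13, where they had 4.87 and 7.97 CPM, and all 6 libraries meet at Hoxb9.

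Of the hormone and regulator genes of enteroendocrine cells none was called, and 4 of 19 tested members had an unadjusted p under 0.05 and a higher level and 3 a lower one (median log2 fold change -0.21). Without wild-type replicate 3 there were 2 higher members, and without wild-type replicate 1 or 2 there was 1 lower member. With 1 library left out the median ran from -0.30 without RNF138-/- replicate 3 to -0.05 without RNF138-/- replicate 2. It turned to 0.01 when a mean of at least 1 CPM was the filter. Sct, secretin, had 5.36, 6.72 and 6.57 CPM in wild type and 16.4, 15.3 and 31.8 CPM in RNF138-/- libraries (adjusted p = 0.148), whereas Gcg, the glucagon precursor, had 126, 102 and 137 CPM against 68.6, 49.9 and 26.9 CPM (adjusted p = 0.208). The groups were apart in both, and they overlapped for Sst, somatostatin, with 10.2 ± 2.56 against 39.9 ± 35.8 CPM (SD, n = 3). In the stem cell list 0 of 14 tested members had an unadjusted p under 0.05 and a higher level and 3 a lower one (median -0.25), among them Ephb2, a receptor of crypt cells, with 111, 87.4 and 79.6 CPM against 45.4, 77.4 and 45.8 CPM. The count of lower members was 0 without wild-type replicate 1, 1 without wild-type replicate 2 or RNF138-/- replicate 3, and 2 to 4 without each of the others. Of 30 proliferation genes 0 had a higher and 1 a lower level at that p, and Mki67 had 150.2 ± 25.1 against 144 ± 18.2 CPM. Of 20 genes of butyrate use 1 had a higher and 1 a lower level at that p, with a median of -0.04. Among them Pdk4, a brake on glucose oxidation, had 6.61, 5.03 and 7.82 CPM against 20.2, 26.7 and 64.1 CPM (adjusted p = 0.129), and Slc5a8, a butyrate transporter, had 157, 143 and 201 CPM against 124, 107 and 107 CPM.

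Most B and T cell genes had higher values in RNF138-/- libraries, and none was called. In the B cell list 10 of 18 tested members had an unadjusted p under 0.05 and a higher level and 0 a lower one, and all 18 log2 fold changes were positive, with a median of 1.33. Ms4a1, which encodes CD20, had 1.69, 1.41 and 1.43 CPM in wild type and 9.78, 2.65 and 12.1 CPM in RNF138-/- libraries (log2 fold change 2.43, SE 0.53, adjusted p = 0.184). RNF138-/- replicate 2 was the lowest of its group, and the groups did not overlap. The summed level of the list was 87.0 to 106 CPM in wild type and 108 to 217 CPM in RNF138-/- libraries. In the list of lymphoid follicle and lymphotoxin genes 6 of 15 had a higher and 1 a lower level at that p (median 0.76). The median was 0.42 without RNF138-/- replicate 1 and 0.49 without RNF138-/- replicate 3, and the count of higher members was 4 without wild-type replicate 1. Cxcr5, which guides B cells into follicles, had 0.790, 0.622 and 1.30 CPM against 4.47, 1.93 and 4.20 CPM, and Ltb, a lymphotoxin chain, had 6.15, 5.14 and 3.47 CPM against 23.9, 11 and 10.5 CPM. How many follicles lay in each piece of tissue was not measured.

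Of the plasma cell genes 1 of 18 tested members had an unadjusted p under 0.05 and a higher level and 2 a lower one, with a median of -0.17. Without RNF138-/- replicate 1 the count of lower members was 6 and the median -0.27, without RNF138-/- replicate 2 the count of higher members was 3, without RNF138-/- replicate 3 it was 2 with a median of -0.27, and without wild-type replicate 3 the median was -0.06. Ighm, the heavy chain of IgM, had 20.7, 32.8 and 27.3 CPM in wild type and 102, 60.5 and 45.1 CPM in RNF138-/- libraries (adjusted p = 0.200). Ighg2c, a heavy chain of IgG, had 471, 418 and 463 CPM against 322, 183 and 231 CPM (adjusted p = 0.234). Igha, the heavy chain of IgA, overlapped, with 6801 ± 656 against 5569.7 ± 1480.4 CPM (SD, n = 3), as did Jchain, the chain that joins secreted IgA, with 2058 ± 481 against 1908 ± 620.0 CPM.

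In the T cell list 13 of 22 tested members had an unadjusted p under 0.05 and a higher level and 0 a lower one, all 22 log2 fold changes were positive with a median of 0.93, and the groups did not overlap in 14. The summed level was 76.3 to 82.2 CPM in wild type and 123 to 141 CPM in RNF138-/- libraries. Cd8a had 2.94, 2.83 and 2.48 CPM against 7.57, 6.62 and 14.7 CPM (log2 fold change 1.81, SE 0.35, adjusted p = 0.165), and Cd3g, a chain of the T cell receptor complex, had 2.20, 1.92 and 3.35 CPM against 8.29, 5.48 and 9.07 CPM (adjusted p = 0.172). Every RNF138-/- library lay above every wild-type one in both genes. Of the cytotoxic and NK cell list 8 of 13 tested members had a higher level at that p and 2 a lower one, with a median of 1.19, and the lower ones numbered 0 without wild-type replicate 1 and 1 without any other single library. Gzmb, the protease granzyme B, had 3.84, 2.94 and 3.66 CPM against 11.1, 10.5 and 13.6 CPM (log2 fold change 1.75, SE 0.24, adjusted p = 0.0525), and Gzma had 4.29, 3.62 and 3.91 CPM against 12.9, 11.4 and 25.5 CPM (adjusted p = 0.106). The chemokine Ccl5 had 2.6, 2.99 and 4.34 CPM against 10.0, 6.14 and 14.2 CPM. The groups were apart in each of these 3 genes.

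No myeloid gene was called. Of the macrophage and monocyte list 1 of 20 tested members had an unadjusted p under 0.05 and a higher level and 1 a lower one, with a median of -0.02, and Cd68, a lysosomal protein of macrophages, had 11.3 ± 0.528 against 10.3 ± 1.47 CPM (SD, n = 3). Of 20 neutrophil genes 6 passed the filter, and of these 3 had an unadjusted p under 0.05 and a higher level and 2 a lower one, with no overlap of the groups in these 5. The log2 fold changes ran from -3.08 for Mpo, the myeloperoxidase of neutrophil granules, to 1.63 for Mmp9, a matrix metalloproteinase (adjusted p = 0.197 and 0.339). The median was -0.34 and turned positive when any library other than RNF138-/- replicate 1 was left out, and the count of higher members was 0 without wild-type replicate 3. The neutrophil proteins S100a8 and S100a9 had 0 to 3 counts in wild type, and in RNF138-/- replicates 1, 2 and 3 S100a8 had 1, 1 and 29 counts and S100a9 had 3, 5 and 34 counts. Batf3, a transcription factor of cross-presenting dendritic cells, had 3.44, 2.83 and 1.36 CPM against 9.24, 6.56 and 5.09 CPM (adjusted p = 0.249), while the median of the dendritic cell list was 0.01. Kit, which mast cells and the pacemaker cells of the gut wall carry, had 127, 129 and 143 CPM against 74.3, 83.8 and 93.1 CPM. It was lower in all 3 RNF138-/- libraries (adjusted p = 0.215). The other mast cell and eosinophil genes did not share one direction. Of the 17 genes in that list, Kit among them, 6 passed the filter. Their log2 fold changes were positive in 3 and negative in 3, with a median of 0.006. The groups did not overlap in 2 genes that rose and in 1 that fell.

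Interferon-stimulated genes were higher in 11 of 36 tested members at an unadjusted p under 0.05 and lower in 0, with a median log2 fold change of 0.54 and 32 of 36 positive. Oas2, which senses double-stranded RNA, had 38.1, 31.7 and 40.4 CPM in wild type and 129, 76.3 and 71.3 CPM in RNF138-/- libraries (log2 fold change 1.33, SE 0.26, adjusted p = 0.165), and Ifit3, of whose windows 51.2% also occur in another gene, mostly Ifit3b, had 20.7, 9.21 and 26.0 CPM against 51.2, 31.3 and 45.5 CPM. RNF138-/- replicate 1 was the highest library in both genes. Without it the list had 6 members higher and 2 lower, with a median of 0.32, and without wild-type replicate 2 it had 4 higher and 1 lower. Without wild-type replicate 1 the count of higher members was 6, and without RNF138-/- replicate 3 it was 18. Of the MHC class I and immunoproteasome list 2 of 19 had a higher level at that p and 0 a lower one (median 0.29, and -0.01 without RNF138-/- replicate 1), with 4 higher without RNF138-/- replicate 3 and 1 without any other single library. Of MHC class II these counts were 3 of 10 and 0 (median 0.13, and -0.01 without RNF138-/- replicate 1), with 1 higher member without any single wild-type library or RNF138-/- replicate 3.

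NF-κB signaling, the pathway the study placed RNF138 in, was described by its components and by its target genes. Of the 26 subunits, kinases and inhibitors 2 had an unadjusted p under 0.05 and a higher level and 0 a lower one, with a median log2 fold change of 0.04. These were Nfkbiz, an inducible co-regulator of NF-κB in the nucleus, with 46.9, 52.5 and 45.3 CPM in wild type and 230.0, 106 and 72.7 CPM in RNF138-/- libraries (adjusted p = 0.222), and Nfkbia, which encodes IκBα, with 64.5, 63.1 and 62.5 CPM against 115, 72.5 and 81.3 CPM (adjusted p = 0.454). Both are also targets of the pathway, and in both replicate 1 was highest. Of the subunit genes, Nfkb1 had 93.1 ± 1.90 against 83.7 ± 4.10 CPM (SD, n = 3, adjusted p = 0.791 in edgeR), with every RNF138-/- library below every wild-type one. Rela had 57.4 ± 13.3 against 59.9 ± 23.8 CPM.

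Of the NF-κB target genes 10 of 31 tested had an unadjusted p under 0.05 and a higher level and 1 a lower one, 0 were called, and the median log2 fold change was 0.35. The count of higher members was 5 without wild-type replicate 1 and 6 without wild-type replicate 2, and the median was 0.23 without RNF138-/- replicate 1. Those with the smallest p were Nos2, Ccl5 and Ltb, given above, and Saa3, an acute phase protein that had 1.02, 1.58 and 2.85 CPM against 6.44, 4.99 and 13.4 CPM (adjusted p = 0.196). The cytokine Il1b had 2.65, 1.92 and 3.04 CPM against 3.93, 4.93 and 4.20 CPM (adjusted p = 0.409), and the chemokine Ccl20 had 1.19, 1.36 and 1.67 CPM against 4.53, 2.11 and 3.25 CPM (adjusted p = 0.300). Icam1, an adhesion molecule, overlapped with 13 ± 1.89 against 18.6 ± 5.39 CPM (SD, n = 3), and so did Ptgs2, the cyclooxygenase COX-2, with 12.1 ± 7.91 against 7.42 ± 2.26 CPM. The neutrophil attractant Cxcl1 was below the filter, with 3, 17 and 9 counts in wild type and 31, 9 and 7 counts in RNF138-/- libraries. Among the DNA repair genes, the other process RNF138 is known for, 0 of 24 had an unadjusted p under 0.05 in either direction, and 5 had one and a lower level without RNF138-/- replicate 3.

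**Figure D3:**
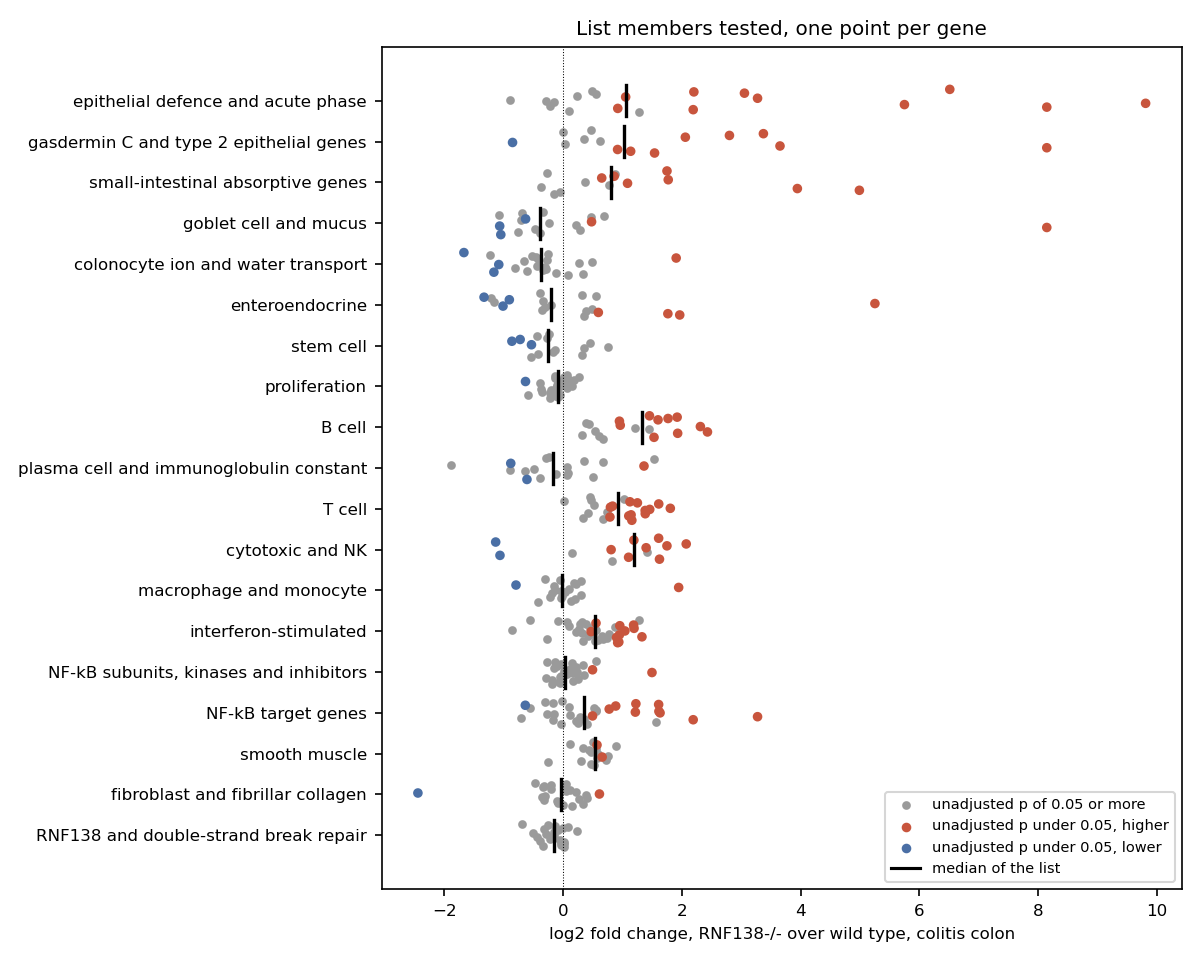
Log2 fold changes (RNF138-/- over wild type, x axis) of the tested members of 19 gene lists, one point per gene, red or blue where the unadjusted p was under 0.05 and gray otherwise, with the list median as a black bar. The medians of the B cell, T cell, cytotoxic, epithelial defence and gasdermin C lists lie between 0.93 and 1.33, and those of the proliferation and DNA repair lists and of the NF-κB subunits between -0.15 and 0.04.

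Markers of tissue layers differed between libraries as well. Of 18 smooth muscle genes 2 had an unadjusted p under 0.05 and a higher level and 0 a lower one, and 17 log2 fold changes were positive with a median of 0.54. The summed level was 12075 to 13488 CPM in wild type and 25980, 16958 and 10487 CPM in RNF138-/- replicates 1 to 3. Replicate 1 stood above and replicate 3 below all wild-type libraries, and the median was 0.19 without replicate 1, while 14 members had a higher level at that p without replicate 3 and 0 without wild-type replicate 1. Mylk, myosin light chain kinase, had 666, 656 and 702 CPM against 1312, 1017 and 869 CPM (adjusted p = 0.335). Of 21 enteric neuron and glia genes 3 had a higher and 0 a lower level at that p (median 0.33, and -0.02 without RNF138-/- replicate 1). Their summed level was 366 to 403 CPM in wild type and 594, 344 and 309 CPM in RNF138-/- replicates 1 to 3, so that replicate 1 lay above and the other two below every wild-type library. Gfra1, a receptor for glial factors on enteric neurons, had 6.77, 5.31 and 8.19 CPM against 14.6, 11.2 and 13.1 CPM (adjusted p = 0.224).

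Markers of cells not belonging to the mucosa were low and uneven. The squamous keratin Krt5 was below the filter with 0, 1 and 2 counts in wild type and 58, 25 and 0 counts in RNF138-/- libraries, and the summed level of the squamous epithelium list was 8.68 to 10.1 CPM in wild type and 37.9, 23.1 and 11.2 CPM in RNF138-/- libraries, with 6 of 18 members passing the filter. The adipocyte hormone gene Adipoq had 10, 1 and 7 counts against 1, 10 and 241 counts, and the summed adipocyte list was highest in RNF138-/- replicate 3, at 447 CPM against 159 to 224 CPM elsewhere. Skeletal muscle genes summed to 16.2 to 21 CPM in wild type and 71.5, 38.6 and 21.8 CPM in RNF138-/- libraries. These marker levels moved with genotype or with single libraries, and their part in the gene differences was not tested. Of the fibroblast genes 1 of 24 had an unadjusted p under 0.05 and a higher level and 1, Col8a1, a lower one (median -0.04, and -0.26 with 3 lower members without RNF138-/- replicate 1). Dcn, a matrix proteoglycan, had 224, 194 and 285 CPM against 311, 352 and 411 CPM, and Col1a1 had 195 ± 54.7 against 170.4 ± 99.4 CPM (SD, n = 3).

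**Figure D4:**
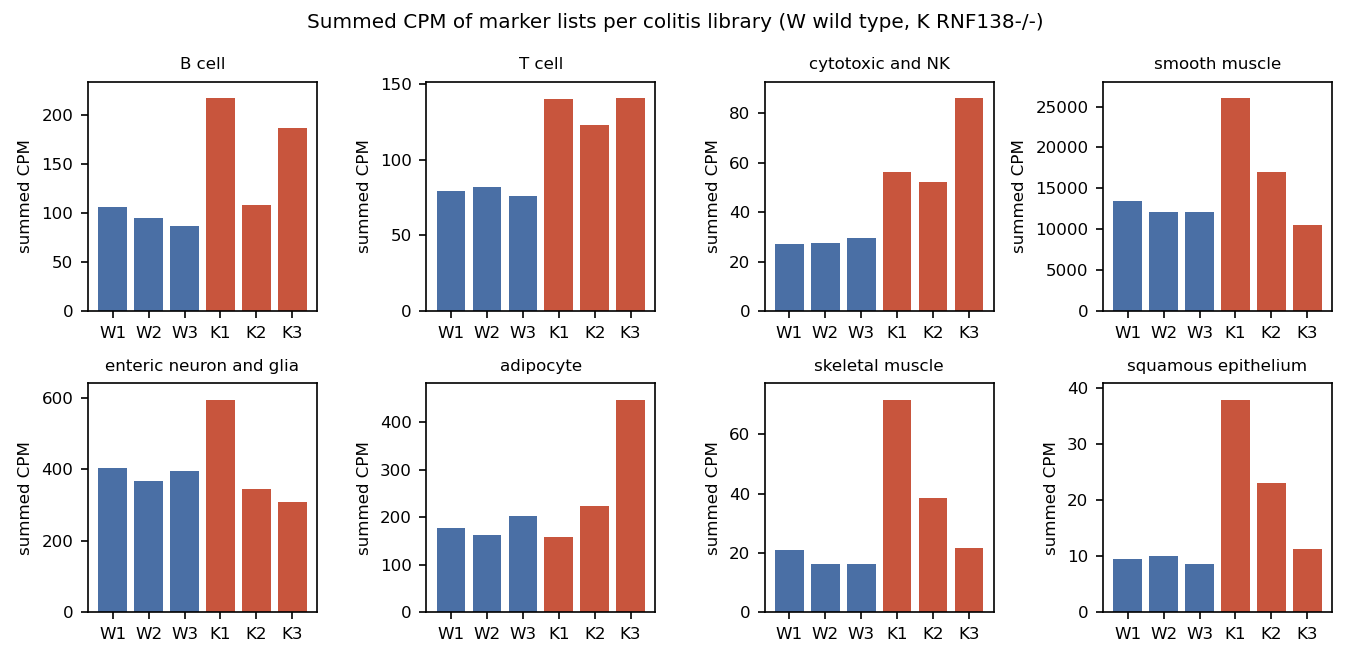
Summed CPM of 8 marker lists in wild-type libraries W1 to W3 (blue) and RNF138-/- libraries K1 to K3 (red), each axis starting at 0. T cell genes are higher in every RNF138-/- library, smooth muscle genes are highest in replicate 1 (25980 CPM) and adipocyte genes in replicate 3 (447 CPM).

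Whether the genotype difference in colitis differed from that in the CAC colon was tested as an interaction over the 12 tissue libraries of both models. Of 18843 genes tested, 1633 (8.67%) had an adjusted p under 0.05, 1376 (7.3%) with a more positive and 257 (1.36%) with a more negative difference in colitis. The count depended on single libraries. Without colitis wild-type replicate 1, 2 or 3 it was 596, 670 and 728, without colitis RNF138-/- replicate 1 it was 1009, and without CAC RNF138-/- replicates 1 and 2 it was 909 and 634. Tissue markers differed between the models in the same test. All 18 smooth muscle genes were among the 1633, with a median log2 fold change of 0.54 in colitis and -3.30 in CAC, as were 15 of 21 enteric neuron and glia genes (0.33 and -2.84) and 15 of 18 B cell genes (1.33 and -3.36). The part of these tissue differences in the interaction was not tested.

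Of the 15 genes called in colitis, 7 were among the 1633. For Gsdmc3 the CAC means were 117 ± 127 CPM in wild type and 6.49 ± 7.88 CPM in RNF138-/- libraries (SD, n = 3), and the interaction was 6.98 on the log2 scale (SE 1.45, adjusted p = 0.0163 in edgeR). Retnlb had 927 ± 1139.7 against 8.42 ± 7.48 CPM there (interaction 14.94, SE 2.41, adjusted p = 0.00578). Both genes thus had higher means in RNF138-/- libraries in colitis and lower means in CAC. The CAC wild-type means rested largely on replicate 3, with 51.8, 35.7 and 263 CPM of Gsdmc3 and 11.8, 566 and 2204 CPM of Retnlb in replicates 1 to 3. The CAC groups did not overlap for Gsdmc3, but for Retnlb wild-type replicate 1 lay below RNF138-/- replicate 1, at 16.4 CPM. CAC wild-type replicate 3 was also the lowest of its group for B3gnt7 and Cyp2c68, with 11.7 and 4.45 CPM against at least 226 and 52.4 CPM in the others. For B3gnt7, with 159 ± 128 against 29.4 ± 24.2 CPM in CAC, the interaction did not pass (adjusted p = 0.474), nor did it for Slc37a2 (adjusted p = 0.786) or Cyp2c68 (adjusted p = 0.822). Col8a1 was low in both CAC groups, with 11 ± 4.17 and 9.31 ± 2.76 CPM (interaction -2.20, SE 0.41, adjusted p = 0.0105).

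The level of the pseudogene Gm14165 set the wild-type colitis libraries apart from the rest of the study. On a scale common to all 18 libraries it had 0.311 ± 0.0528 CPM in these and group means between 9.65 and 26.1 CPM in the other 5 groups, and Gm8730 had 7.44 ± 1.04 CPM against means between 63.2 and 134 CPM. In the organoids B3gnt7, Gsdmc3 and Retnlb had means of at most 1.90 CPM, whereas Col8a1 had 254 ± 144 CPM in wild-type and 1018 ± 183 CPM in RNF138-/- organoids.

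**Figure D5:**
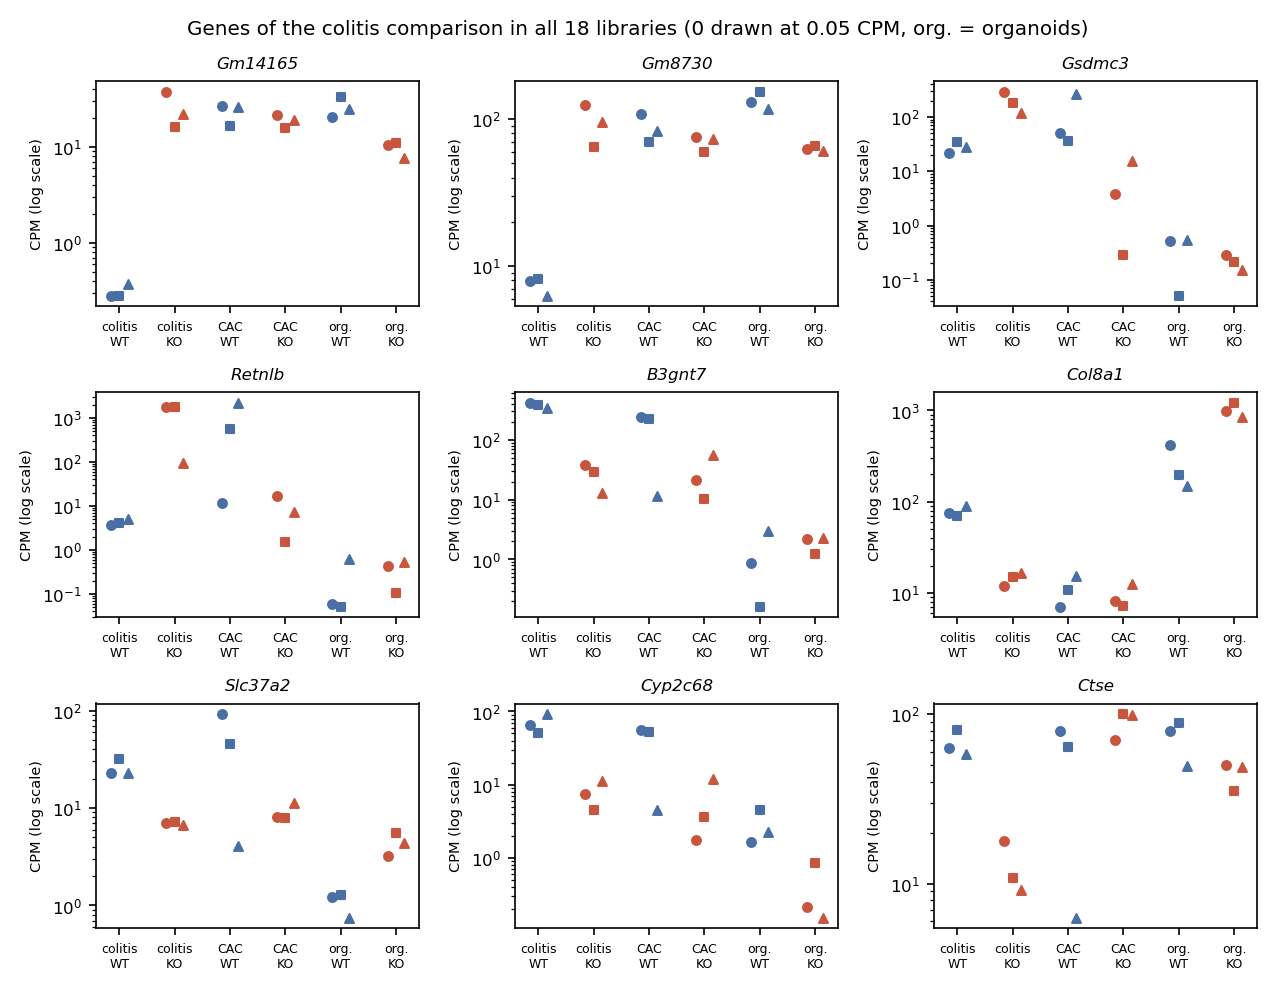
CPM on a log scale of 9 genes in all 18 libraries by model and genotype (CAC, colitis-associated cancer colon, and org., organoids), blue for wild type and red for RNF138-/-, with the marker shape giving the replicate. Gm14165 and Gm8730 are low in the wild-type colitis libraries alone among the 6 groups, and Gsdmc3 and Retnlb are higher in RNF138-/- than in wild-type libraries in colitis but have lower means in CAC.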

How the data were processed

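RNA of colon tissue was sequenced in 3 libraries per genotype. The authors deposited raw counts per gene as whole numbers, for 36757 genes. The submitters' processing notes name STAR 2.6.1d, HTSeq 0.11.2 and DESeq2, and the methods of the paper name mm10 and Gencode v.M8. Whether counting used strand is not given in the sources used here. A deposited table of the authors' log2 fold changes and p-values was not used. Of the genes, 36700 matched GENCODE M21, which gave coordinates.

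Counts were fitted with edgeR 4.0.16 (R 4.3.3): TMM, filterByExpr by genotype, glmQLFit, glmQLFTest and Benjamini-Hochberg adjustment over all genes, with calls at an adjusted p below 0.05 that also differed 2-fold or more. The interaction used the 12 tissue libraries. DESeq2 1.42.0 was an alternative. Alternatives were other scalings, filters and fits, the replicate block and leaving out each library. Promoter windows came from RefSeq (GRCm38.p6). Shared sequence is the share of a gene's 50-base transcript windows found in another gene. The fit was tested on simulated data. Groups came from the labels. Replicates differed by more than sampling noise (chi-square per degree of freedom of at least 13.6), and same-numbered libraries were not paired.

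The members, the 45 gene lists (912 members, 5 not in the table) and the tests were chosen with earlier results of these data known. Named genes were Rnf138, every called gene, the 12 largest increases and 12 largest decreases among protein-coding genes with an unadjusted p under 0.01, no overlap and at least 5 CPM, up to 4 members of each list with the smallest p, its first member, genes of the study, and the 6 list members with the smallest interaction p. Hox genes, Pdx1, Il13, Il5, S100a8, S100a9, Krt5, Adipoq and Igha were named after their values were seen. Depth limits genes under about 1 CPM, and intervals and floors cover counting error only. Some items are not reported here.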

Additional observations from a re-analysis of the deposited data

Results flagged for a closer look

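The difference between genotypes was not the same in colitis and in CAC for 1633 genes in the edgeR interaction test over the 12 tissue libraries, and the genes below were flagged for that reason. Values are the log2 fold change in colitis minus that in CAC, so that a positive value is a more positive difference in colitis. Among called genes it was 6.63 for Gm14165 (adjusted p = 0.00031), 3.99 for Gm8730 (adjusted p = 0.00039), 6.98 for Gsdmc3 (adjusted p = 0.0163) and 4.01 for Cyp2c69 (adjusted p = 0.0235), and it was -2.20 for Col8a1 (adjusted p = 0.0105), -3.26 for Ctse (adjusted p = 0.0410) and -4.69 for Gm11702 (adjusted p = 0.0420). Cyp2c69 was lower in RNF138-/- libraries in both models. In CAC it had 2.89, 5.50 and 1.99 CPM in wild type against 0, 0 and 0.0453 CPM, so its value rests on levels near the floor.

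Members of the gene lists with the smallest interaction p were genes of fat, nerve, muscle and B cells. The difference was 7.03 for Cidec, a lipid droplet protein, 6.77 for the neuropeptide Vip, 5.50 for Plin4, which also coats lipid droplets, and 5.57 for the smooth muscle myosin Myh11. It was 3.8 for Mzb1, a protein of plasma cells that shares 53.5% of its windows with another gene, and 5.76 for Tnfrsf13c, the B cell receptor for BAFF. In colitis these genes had values of 0.04 (Vip), 0.07 (Mzb1), 0.59 (Myh11), 1.28 (Plin4), 1.53 (Tnfrsf13c) and 3.04 (Cidec), and in CAC all of them were lower in RNF138-/- libraries, by log2 values between -3.77 and -6.79. These values come from a separate fit of each model, so they do not add up exactly to the differences of the joint fit. The groups hold 3 libraries each, so no library was tested for standing apart.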

How the results depend on the processing

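The number of called genes depended on the processing, and the direction of the named genes mostly did not. Against 3 higher and 12 lower genes, 7 and 22 were called with no TMM scaling, 207 and 147 with no filter on low counts, 191 and 135 by DESeq2, 6 and 6 in a fit of all 18 libraries, and 3 and 2 in a fit of the 12 tissue libraries. An unadjusted p under 0.05 with the fold minimum gave 509 and 235. RLE normalization, scaling without immunoglobulin genes and a minimum of 1 CPM gave counts within 1.5 times of these. Leaving out 1 library gave 0 to 78 higher and 0 to 69 lower genes. The cause was not tested.

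With the replicate number as a block, 38 genes were higher and 51 lower, all 15 called genes among them. Same-numbered libraries correlated at 0.22, 0.09 and 0.47 in their deviations from the group means, and not every library correlated best with its own number, so the numbers were not taken as pairs. The block gave -0.0024 for Rela.

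The interaction count of 1633 was 2792 by DESeq2, 2733 in the fit of 18 libraries, 5103 at an unadjusted p under 0.05 and 596 to 2228 when 1 library was left out. The log2 fold change of Rnf138 was between -0.20 and 0.16 when 1 library was left out. Over the same fits Muc2 ran from -0.55 to 0.039, Mki67 from -0.20 to 0.056, Jchain from -0.41 to 0.10, Rela from -0.18 to 0.36, Col1a1 from -0.66 to 0.19, Hoxb9 from -0.087 to 0.14, Mzb1 from -0.045 to 0.12 and Vip from -0.15 to 0.19. Hoxb9 was -0.0012 with no TMM scaling and -0.0043 with no filter. Over 129 named genes other than Rnf138, 1617 of 1933 values kept their direction and side of the threshold, 223 passed it newly, 74 lost it and 19 changed sign. Of 675 list medians 51 moved by more than the spread between libraries. DESeq2 called 65 of the 115 named genes, Rnf138 included, that edgeR did not call. A sex covariate was not run, since all 6 libraries carried Y-linked transcripts. Depth limits genes with a few counts per library, such as Il13 and S100a8.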

Other observations

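Of 18 basement membrane genes 0 had an unadjusted p under 0.05 in either direction (median log2 fold change 0.07), and of 20 genes of endothelium and adhesion 2 had a higher level and 0 a lower one at that p (median 0.27), with 5 higher and a median of 0.11 without RNF138-/- replicate 3 and 0 higher without wild-type replicate 3. Among 18 clock genes 1 was higher and 1 lower (median 0.05), and among 16 tight junction genes 0 were higher and 1 lower (median -0.12). Cidec, a lipid droplet protein, had 2.88, 1.75 and 1.61 CPM in wild type and 9.89, 15.7 and 25.9 CPM in RNF138-/- libraries, with no overlap (edgeR adjusted p = 0.0525).

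A few genes named after their values were seen stood just outside the threshold or had high levels. Rgs2, a regulator of G protein signaling, had 26.2, 35.6 and 25.1 CPM against 86.6, 76.1 and 76.1 CPM (adjusted p = 0.0525). B3gnt5, a glycosyltransferase of the same family as B3gnt7, had 51.4, 63.3 and 84.5 CPM against 22.5, 18.3 and 19.2 CPM (adjusted p = 0.0525), and Nov, a secreted matricellular protein, had 771, 759 and 890.3 CPM against 97.9, 329 and 162 CPM (adjusted p = 0.169). The groups did not overlap in any of these 3 genes.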
